A study of Mus musculus with 12 samples.

Results

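The genes described here are 10 components of the interferon pathway that act upstream of the interferon-stimulated genes. They were taken by symbol from a table of 24421 gene symbols: the receptor chains Ifnar1, Ifnar2, Ifngr1 and Ifngr2, the Janus kinases Jak1, Jak2 and Tyk2, and the RNA-sensing adaptor Mavs with the kinase Tbk1 and the transcription factor Irf3. All 10 symbols were found, and all 10 were among the 13281 genes with enough counts to be tested. They were chosen to ask at which step of the pathway the low interferon state of BACH1 knockout cells might already be visible. The libraries were poly(A) RNA of KP cells, a mouse lung adenocarcinoma line in which Trp53flox/flox is among the alleles common to every group. The 4 groups combined a CRISPR/Cas9 guide with an siRNA given for 48 hours. They were control guide with control siRNA (sgCTRL_siCTRL, called control cells), guide against BACH1 with control siRNA (sgBACH1_siCTRL, knockout cells), control guide with siRNA against FEM1B (sgCTRL_siFEM1B) and guide against BACH1 with siRNA against FEM1B (sgBACH1_siFEM1B). Each group had 3 libraries, described as biological replicates in the design text. Only 1 line per guide is named, and whether each is a clone or a pool is not given in the sources used here, so a difference between genotypes is also a difference between 2 lines.

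Interferons are secreted cytokines that bind paired receptor chains. IFNAR1 and IFNAR2 form the type I receptor, which works through TYK2 and JAK1. IFNGR1 and IFNGR2 form the receptor for interferon gamma, which works through JAK1 and JAK2. The kinases activate STAT proteins that switch on interferon-stimulated genes. Inside the cell, RIG-I and MDA5 detect viral or misplaced RNA and signal through MAVS, an adaptor on the outer mitochondrial membrane, to TBK1, which phosphorylates IRF3, a factor that induces the interferon beta gene. STING relays signals from DNA in the cytosol to the same kinase.

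Total counts per library ranged from 16539168 to 22196999, and each of the 10 genes had at least 754 counts in every library. The siRNA target Fem1b spanned 157 to 167 CPM (counts scaled to the library total and composition) in sgCTRL_siCTRL, 43.0 to 57.9 in sgCTRL_siFEM1B, 136 to 141 in sgBACH1_siCTRL and 46.2 to 54.4 CPM in sgBACH1_siFEM1B. Bach1 transcript was at 31.4 ± 2.04 CPM in the control libraries and 29.5 ± 1.72 CPM in knockout cells (SD, n = 3), and this level checks nothing about the knockout, since an edited gene can still be transcribed. Epithelial markers (7 genes, led by Krt18 and Krt19) summed to 7080.1 to 9379 CPM per library. Alveolar type 2 markers (7 genes, led by Lamp3 and Sftpb, with Nkx2-1, Sftpa1 and Sftpd at 0) summed to 0.648 to 2.32 CPM per library. Leukocyte markers (12 genes, with Cd3e, Cd4, Adgre1 and Siglech at 0) summed to 21.6 to 30.3 CPM in sgCTRL_siFEM1B and 5.49 to 11.4 CPM in the other groups, mostly from Cd68. Fibroblast markers (7 genes, led by Col1a1 and Col1a2) summed to 18.3 to 25.0 CPM with the control guide and 8.58 to 11.2 CPM with the BACH1 guide. These sums follow their leading genes, and single markers went both ways in knockout against control cells under control siRNA. Log2 fold changes ran from −1.42 to 2.73 over the 3 fibroblast markers tested and from −2.27 to 3.07 over the 7 epithelial markers. In bulk RNA a change in the number of cells that express a gene and a change in the level per cell cannot be told apart, and the part of these markers in the results was not tested.

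Promoter sequences were examined first, because interferon-stimulated genes carry response elements that their regulators may or may not share. The 250 bases before the start given in the RefSeq promoter entry were read for each gene (GRCm38.p6), and all 10 had an entry. For Ifnar1, Jak1 and Tyk2 this start lies inside the gene positions given below, so their windows lie partly within the gene. The interferon-stimulated response element was searched as GAAA, any 2 bases and GAAA, the gamma-activated site as TTCNNNGAA, the antioxidant response element core as TGACNNNGC and the core of the element for BACH and MAF factors as TGACTCAGC, each on both strands. Every match of the BACH and MAF core is also a match of the antioxidant core. Of 32851 promoters of 27025 genes, 2.98% held the interferon-stimulated response element, 7.02% the gamma-activated site, 10.2% the antioxidant core and 0.39% the BACH and MAF core. The interferon-stimulated response element was in 0 of the 10 promoters. It was in 14 of 27 promoters of interferon-stimulated effector genes, but in only 2 of 14 promoters of pathway genes that are themselves interferon-induced. The BACH and MAF core was in 0 of the 10. Shown are the promoter of Mavs, which fell most in knockout cells, that of Ifngr2, which rose most with FEM1B siRNA, and that of Ifnar2, which was called in no comparison. The promoter of Isg15, an effector gene chosen after its values were seen, is given as an example that holds the response element. Motif matches are in capitals.
Mavs: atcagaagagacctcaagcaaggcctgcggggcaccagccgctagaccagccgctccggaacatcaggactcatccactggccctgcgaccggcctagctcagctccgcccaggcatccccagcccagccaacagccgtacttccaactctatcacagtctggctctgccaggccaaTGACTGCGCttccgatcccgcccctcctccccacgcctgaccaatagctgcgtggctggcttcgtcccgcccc
Ifngr2: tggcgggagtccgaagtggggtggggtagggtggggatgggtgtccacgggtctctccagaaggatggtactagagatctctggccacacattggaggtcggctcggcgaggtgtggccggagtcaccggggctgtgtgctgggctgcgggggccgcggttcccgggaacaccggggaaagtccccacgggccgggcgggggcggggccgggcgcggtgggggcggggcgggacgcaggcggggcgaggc
Ifnar2: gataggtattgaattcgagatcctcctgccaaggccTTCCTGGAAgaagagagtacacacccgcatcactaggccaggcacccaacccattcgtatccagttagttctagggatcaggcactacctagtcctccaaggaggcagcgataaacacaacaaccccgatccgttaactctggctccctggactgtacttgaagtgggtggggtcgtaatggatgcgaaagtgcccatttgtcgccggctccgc
Isg15: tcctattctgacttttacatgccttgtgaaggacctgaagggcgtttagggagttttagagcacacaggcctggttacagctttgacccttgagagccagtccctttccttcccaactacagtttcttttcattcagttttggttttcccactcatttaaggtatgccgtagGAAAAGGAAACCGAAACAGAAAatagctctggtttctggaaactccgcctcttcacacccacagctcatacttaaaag
The Mavs window is chr2:131233813-131234062 on the plus strand, and its antioxidant core lay 73 to 65 bases before the start. The Ifngr2 window, chr16:91546809-91547058 on the plus strand, held none of the 4 motifs. The Ifnar2 window is chr16:91372533-91372782 on the plus strand, with a gamma-activated site 214 to 206 bases before the start. The Isg15 window is chr4:156200819-156201068, read on the minus strand, where 3 overlapping response elements began 78, 72 and 66 bases before the start. The other 7 promoters held none of the 4 motifs. A match describes letters and shows no binding.

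Per kilobase of exon, the 10 genes were expressed at like orders of magnitude in control cells. Ifngr1 was highest at 33.8 ± 1.33 CPM per kb (SD, n = 3), followed by Mavs at 31.6 ± 0.177 and Jak1 at 25.6 ± 0.656 CPM per kb. Ifnar2 was at 17.1 ± 0.852, Irf3 at 15.4 ± 1.36, Ifnar1 at 14.7 ± 0.742, Ifngr2 at 14.3 ± 1.38 and Jak2 at 13.8 ± 1.27 CPM per kb. Neighbours from Irf3 to Jak2 in this order differed by less than the larger of their SDs. Tbk1, at 11.2 ± 0.349, and Tyk2, at 8.16 ± 0.215 CPM per kb, were the lowest.

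**Figure D1:**
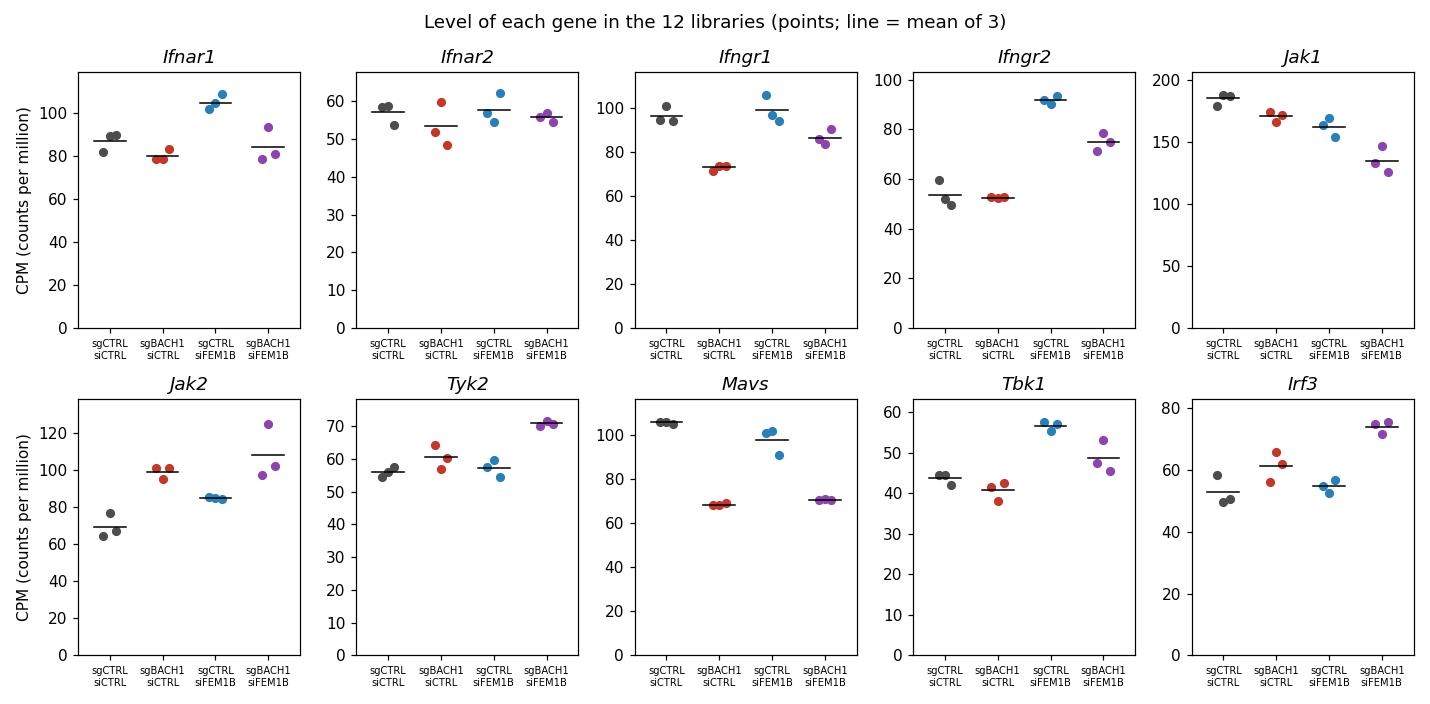
Level of each of the 10 genes in CPM (vertical axis, from 0) in the 3 libraries of each of the 4 groups (horizontal axis), with points for libraries and a line for their mean. Mavs lies at 105 to 106 CPM in the control libraries and 68.3 to 69.1 CPM in knockout cells, and Ifngr2 at 49.6 to 59.5 CPM in the control libraries and 90.2 to 93.3 CPM with FEM1B siRNA.

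The first comparison was knockout against control cells under control siRNA. The receptor and kinase genes were still expressed in knockout cells: of the 10, Mavs and Ifngr1 fell, Jak2 and Irf3 rose, and the other 6 were not called, where a gene was called at an adjusted p under 0.05. In the same comparison 50.5% of all genes tested were called, 24.2% higher and 26.3% lower, so that 4 of 10 is near the background. The libraries of both groups did not overlap for 4 of the 10, against 60.3% of all genes. The median log2 fold change of the 10 was −0.10 beside −0.02 for all genes, and their median absolute change was 0.12 beside 0.24. None changed 2-fold, and the 95% interval of each of the 10 lay within 2-fold.

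**Figure D2:**
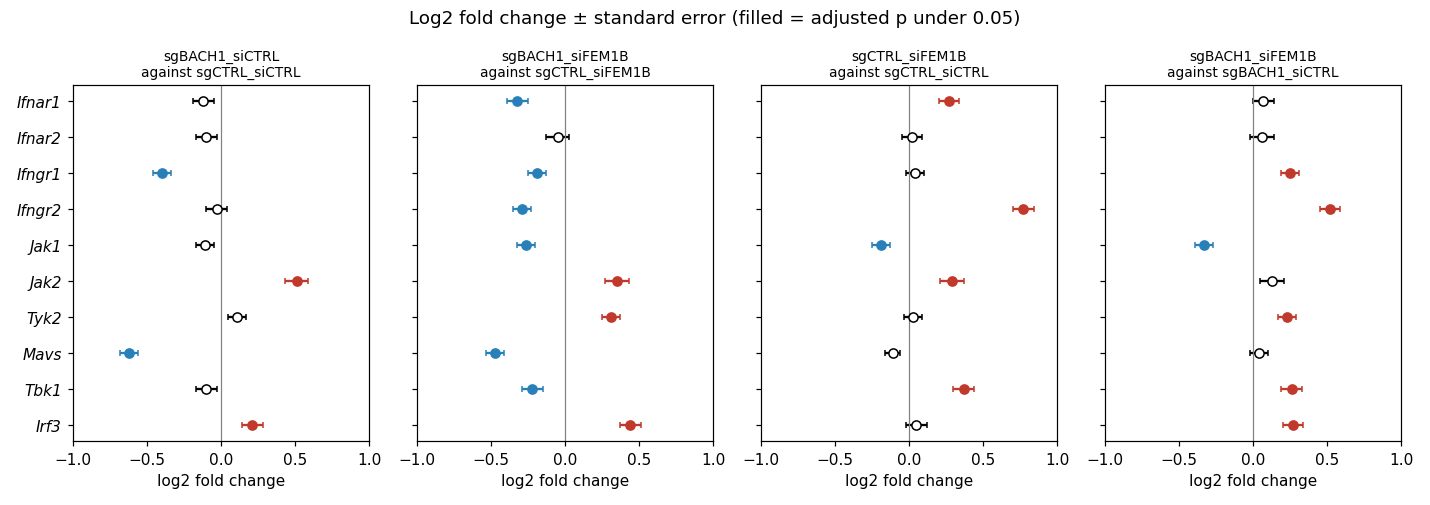
Log2 fold change of each gene (horizontal axis) in the 4 comparisons between groups (panels), as points with the standard error, filled where the adjusted p was under 0.05. Knockout against control cells runs from −0.62 for Mavs to 0.51 for Jak2, and FEM1B siRNA in control cells reaches 0.77 for Ifngr2.

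Among the chains of the type I receptor, neither was called in knockout cells under control siRNA. Ifnar1, the chain that recruits TYK2 (chromosome 16, 91485032 to 91510523, plus strand), was at 82.1, 89.5 and 90.0 CPM in the control libraries and 78.8, 79.0 and 83.4 CPM in knockout cells. The groups overlapped, and the log2 fold change was −0.12 ± 0.07 (SE; 95% interval −0.26 to 0.02; adjusted p = 0.149). Ifnar2, the chain that binds interferon most tightly and recruits JAK1 (chromosome 16, 91372783 to 91405589, plus strand), was at 58.5, 58.8 and 53.7 CPM in the control libraries and 51.7, 59.8 and 48.5 CPM in knockout cells. These ranges overlapped as well, with a log2 fold change of −0.10 ± 0.07 (95% interval −0.25 to 0.06; adjusted p = 0.296). Ifnar2 was called lower without replicate 2 of sgBACH1_siCTRL, its highest knockout library, at −0.19 (adjusted p = 0.0480). A predicted gene on the same strand, Gm21970, shares 9.46% of the exon bases of Ifnar2 and is not among the symbols counted. Reads of that stretch cannot be told apart.

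The chains of the interferon gamma receptor differed in their behaviour. Ifngr1, the ligand-binding chain that carries JAK1 (chromosome 10, 19591949 to 19610229, plus strand), was at 94.3, 101 and 93.9 CPM in the control libraries and 71.5, 73.6 and 73.8 CPM in knockout cells. The groups did not overlap, and Ifngr1 was 24.2% lower, a log2 fold change of −0.40 ± 0.06 (adjusted p = 1.21e-05). Ifngr2, the chain that carries JAK2 (chromosome 16, 91547059 to 91564007, plus strand), was at 59.5, 51.9 and 49.6 CPM in the control libraries and 52.6, 52.2 and 52.6 CPM in knockout cells. The knockout libraries lay inside the range of the control libraries, with a log2 fold change of −0.03 ± 0.07 (95% interval −0.17 to 0.11; adjusted p = 0.693). The ratio of Ifngr1 to Ifngr2 per kilobase was 2.09 to 2.56 in control and 1.80 to 1.87 in knockout libraries.

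Of the Janus kinases, Jak2 rose and the other two were not called. Jak2, the kinase of the IFNGR2 chain and of several cytokine receptors (chromosome 19, 29251803 to 29313095, plus strand), was at 64.5, 76.6 and 67.0 CPM in the control libraries and 101, 95.1 and 101 CPM in knockout cells. The groups did not overlap, and Jak2 was 42.6% higher, a log2 fold change of 0.51 ± 0.08 (adjusted p = 2.16e-05). Chromosome 19 as a whole was higher in knockout cells, with a median log2 fold change of 0.44 over 495 genes. With the median of each chromosome removed, Jak2 was at 0.08 (adjusted p = 0.448).

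Jak1, the kinase common to both receptors (chromosome 4, 101151974 to 101265282, minus strand), was at 179, 188 and 187 CPM in the control libraries and 174, 166 and 172 CPM in the knockout libraries. Each knockout library was below each control library, but the log2 fold change of −0.11 ± 0.06 missed the threshold (95% interval −0.23 to 0.01; adjusted p = 0.104). Tyk2, the kinase of the IFNAR1 chain (chromosome 9, 21104068 to 21131393, minus strand), was at 54.5, 56.1 and 57.4 CPM in the control libraries and 64.2, 56.9 and 60.4 CPM in knockout cells. These ranges overlapped, with a log2 fold change of 0.11 ± 0.06 (95% interval −0.02 to 0.24; adjusted p = 0.138). Chromosome 9 had a median of 0.27 over 744 genes, and with the chromosome medians removed Tyk2 was called lower, at −0.17 (adjusted p = 0.0350). An antisense transcript, 1700084C06Rik, overlaps 8.07% of the exon bases of Tyk2 and is not among the symbols counted. Since the strand setting of the counting is not given, reads of that stretch cannot be told apart. The ratio of Jak1 to Jak2 per kilobase was 1.71 to 1.94 in control and 1.19 to 1.21 in knockout libraries.

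Of the RNA-sensing genes, Mavs fell more than any other of the 10 (chromosome 2, 131234063 to 131248025, plus strand). It was at 106, 106 and 105 CPM in the control libraries and 68.3, 68.5 and 69.1 CPM in knockout cells. The groups lay far apart relative to the spread within each, and Mavs was 35.0% lower, a log2 fold change of −0.62 ± 0.06 (adjusted p = 1.19e-08). Its absolute change was at the 82.3 percentile of all genes tested. The log2 fold change was −0.51 with the chromosome medians removed (adjusted p = 2.65e-07), and it ran from −0.63 to −0.61 with each library left out in turn.

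Downstream of Mavs the changes were smaller. Tbk1, the kinase that joins the RNA and DNA sensing routes (chromosome 10, 121546455 to 121586794, minus strand), was at 44.5, 44.4 and 42.1 CPM in the control libraries and 41.6, 38 and 42.5 CPM in knockout cells. The ranges overlapped narrowly, with a log2 fold change of −0.10 ± 0.07 (95% interval −0.25 to 0.04; adjusted p = 0.235). The median of chromosome 10 was 0.10 over 631 genes, and with it removed Tbk1 was called lower, at −0.23 (adjusted p = 0.0125). Irf3, the factor that TBK1 phosphorylates (chromosome 7, 44997648 to 45002848, plus strand), was at 58.3, 49.7 and 50.7 CPM in the control libraries and 56.1, 65.9 and 61.8 CPM in knockout cells. Although the ranges overlapped, Irf3 was called higher, at 0.21 ± 0.07 (adjusted p = 0.0189). It was no longer called when control replicate 2 (adjusted p = 0.0975) or 3 (adjusted p = 0.0816) or knockout replicate 2 (adjusted p = 0.110) or 3 (adjusted p = 0.0537) was left out. Bcl2l12 overlaps Irf3 on the opposite strand over 2.56% of its exon bases, so a few reads could belong to either.

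The same genotypes were compared under FEM1B siRNA, where 54.6% of all genes were called, 28.2% higher and 26.4% lower. Of the 10 genes 6 fell, 3 rose and Ifnar2 was not called. The groups did not overlap for 9 of the 10, against 57.0% of all genes. The median log2 fold change was −0.21 beside 0.01 for all genes, and the median absolute change 0.30 beside 0.27. The knockout libraries of this comparison are not those of the first, and neither are the controls. Mavs, Ifngr1, Jak2 and Irf3 were thus called in the same direction in 2 separate sets of libraries. Both sets come from the same 2 lines, so a fixed difference between the lines would recur in both.

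Mavs was at 101, 102 and 91.1 CPM in sgCTRL_siFEM1B and 70.6, 71.0 and 70.5 CPM in sgBACH1_siFEM1B. The groups were again apart, with a log2 fold change of −0.47 ± 0.06 (adjusted p = 5.64e-07). Irf3 was at 54.7, 52.5 and 56.8 CPM in sgCTRL_siFEM1B and 74.9, 71.5 and 75.5 CPM in sgBACH1_siFEM1B. Here the ranges of Irf3 did not overlap, and it rose by 0.44 ± 0.07 (adjusted p = 3.65e-05). Jak2 was at 85.7, 84.9 and 84.2 CPM against 97.2, 125 and 102 CPM, 0.35 ± 0.08 higher (adjusted p = 0.000993). Removing the chromosome medians brought Jak2 to −0.08 (adjusted p = 0.391). Tyk2 was at 57.4, 59.8 and 54.4 CPM against 70.2, 71.6 and 70.8 CPM, 0.31 ± 0.06 higher (adjusted p = 0.000281). The same removal brought Tyk2 to 0.02 (adjusted p = 0.764). Mavs (−0.38, adjusted p = 1.23e-05) and Irf3 (0.35, adjusted p = 0.000431) were called with the medians removed as well. The part of the chromosome shifts in the results of these genes was not tested.

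Receptor chains were lower in sgBACH1_siFEM1B than in sgCTRL_siFEM1B for 3 of 4 genes. Ifnar1 was at 102, 105 and 109 CPM in sgCTRL_siFEM1B and 78.7, 93.9 and 80.9 CPM in sgBACH1_siFEM1B, a log2 fold change of −0.32 ± 0.07 (adjusted p = 0.000442). Ifngr2 was at 91.8, 90.2 and 93.3 CPM against 71.4, 78.6 and 75.1 CPM, a change of −0.29 ± 0.06 (adjusted p = 0.000796). For both genes all knockout libraries lay below all control libraries. Ifngr1 was at 106, 96.6 and 94.1 CPM against 85.8, 83.5 and 90.3 CPM, a change of −0.19 ± 0.06 (adjusted p = 0.00857) that was not called without replicate 1 of sgCTRL_siFEM1B (adjusted p = 0.0638). Ifnar2 was at 56.8, 54.4 and 62.0 CPM against 55.9, 56.8 and 54.4 CPM, a change of −0.05 ± 0.08 (95% interval −0.21 to 0.11; adjusted p = 0.597).

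Jak1 and Tbk1 were also lower in the knockout under FEM1B siRNA. Jak1 was at 164, 169 and 154 CPM in sgCTRL_siFEM1B and 133, 147 and 126 CPM in sgBACH1_siFEM1B, a log2 fold change of −0.26 ± 0.06 (adjusted p = 0.000798). Tbk1 was at 57.5, 55.2 and 57.0 CPM against 47.4, 53.1 and 45.5 CPM, a change of −0.22 ± 0.07 (adjusted p = 0.0118). Neither pair of groups overlapped, but the call of Tbk1 ended without replicate 3 of sgBACH1_siFEM1B (adjusted p = 0.0686).

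**Figure D3:**
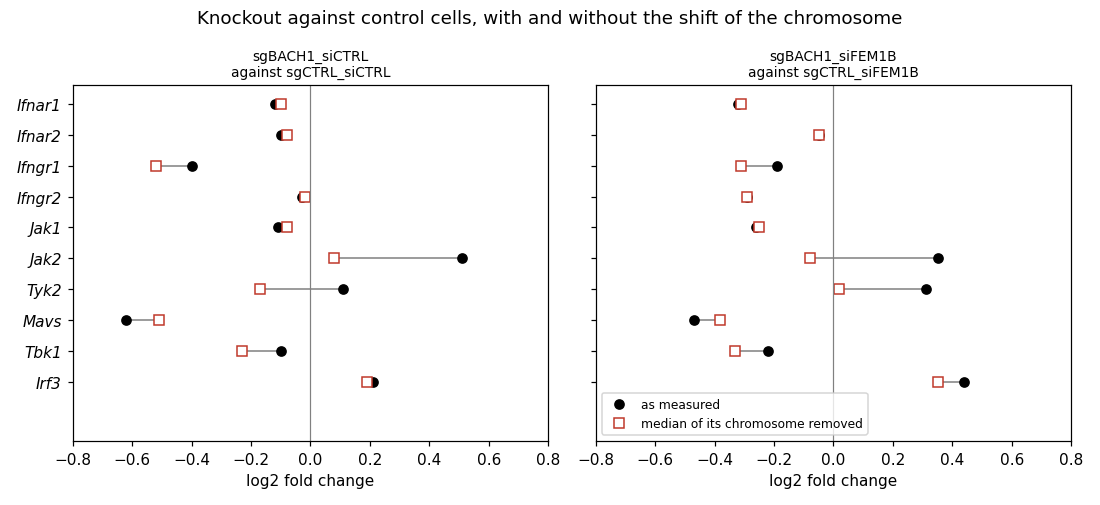
Change in the knockout relative to control cells (log2, horizontal axis) under control siRNA (left) and FEM1B siRNA (right), as measured (filled circles) and with the median of the gene's chromosome removed (open squares). Jak2 moves from 0.51 to 0.08 and Tyk2 from 0.11 to −0.17 on the left, while Mavs moves from −0.62 to −0.51.

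FEM1B siRNA was compared with control siRNA in control cells. Ifngr2, Tbk1, Jak2 and Ifnar1 rose, Jak1 fell and the other 5 were not called, beside 45.0% of all genes called (22.1% higher and 22.9% lower). The groups did not overlap for 6 of the 10, against 52.1% of all genes. The median log2 fold change was 0.04 beside 0.00 for all genes. The group sgCTRL_siFEM1B is the control of the previous comparison and sgCTRL_siCTRL that of the first, so these values share libraries with those above.

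Ifngr2 showed the largest change of the 10 genes in any comparison, from 49.6 to 59.5 CPM in control cells to 90.2 to 93.3 CPM with FEM1B siRNA. It rose by 70.8%, a log2 fold change of 0.77 ± 0.07 (adjusted p = 2.02e-08), at the 90.9 percentile of absolute change. Its partner Ifngr1 was at 96.2 ± 3.78 and 98.9 ± 6.36 CPM (SD, n = 3), a change of 0.04 ± 0.06 (95% interval −0.08 to 0.16; adjusted p = 0.606). The ratio of Ifngr1 to Ifngr2 per kilobase accordingly lay at 1.33 to 1.53 with FEM1B siRNA. The type I chain Ifnar1 rose from 82.1 to 90.0 CPM to 102 to 109 CPM, by 0.27 ± 0.07 (adjusted p = 0.00219), and Ifnar2 was at 0.02 ± 0.07 (adjusted p = 0.884).

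Tbk1 rose from 42.1 to 44.5 CPM to 55.2 to 57.5 CPM, by 0.37 ± 0.07 (adjusted p = 0.000192). Jak2 rose by 0.29 ± 0.08 (adjusted p = 0.00556). Jak1 fell by 0.19 ± 0.06 (adjusted p = 0.0115), a call that ended without replicate 3 of sgCTRL_siFEM1B (adjusted p = 0.0747). The remaining members were at −0.11 ± 0.05 for Mavs (adjusted p = 0.119), 0.03 ± 0.06 for Tyk2 (adjusted p = 0.706) and 0.05 ± 0.07 for Irf3 (adjusted p = 0.637). All 3 Mavs libraries with FEM1B siRNA were below all control libraries, by little next to the fall in knockout cells.

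In knockout cells FEM1B siRNA gave 5 of the 10 genes called higher and Jak1 lower, beside 41.7% of all genes called (21.9% higher and 19.8% lower). The groups did not overlap for 7 of the 10, against 51.5% of all genes, and the median log2 fold change was 0.18 beside 0.02. Ifngr2 rose from 52.2 to 52.6 CPM to 71.4 to 78.6 CPM, by 0.52 ± 0.07 (adjusted p = 4.45e-06). Irf3 rose by 0.27 ± 0.07 (adjusted p = 0.00458), Tbk1 by 0.26 ± 0.07 (adjusted p = 0.00570), Ifngr1 by 0.25 ± 0.06 (adjusted p = 0.00252) and Tyk2 by 0.23 ± 0.06 (adjusted p = 0.00523). Jak1 fell by 0.33 ± 0.06 (adjusted p = 0.000119), to the lowest levels it had in any group, 126 to 147 CPM. The log2 fold change was 0.04 ± 0.06 for Mavs (adjusted p = 0.572), 0.06 ± 0.08 for Ifnar2 (adjusted p = 0.533), 0.07 ± 0.07 for Ifnar1 (adjusted p = 0.414) and 0.13 ± 0.08 for Jak2 (adjusted p = 0.208).

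Whether the siRNA effect differed between genotypes was tested as the difference of the 2 siRNA effects, knockout minus control. None of the 10 was called by edgeR or by DESeq2, beside 6.08% of all genes by edgeR (3.48% higher and 2.60% lower), and 5 had an unadjusted p under 0.05. The largest difference was that of Ifngr2, at −0.26 ± 0.09 (adjusted p = 0.102). It was called without replicate 1 of sgCTRL_siCTRL (−0.34, adjusted p = 0.0364). Without replicate 2 of sgBACH1_siFEM1B, 3 of the 10 were called: Ifngr2 (−0.29, adjusted p = 0.0471), Ifnar1 (−0.28, adjusted p = 0.0299) and Jak2 (−0.28, adjusted p = 0.0454). The calls of Ifnar1 and Jak2 in control cells and of Ifngr1, Tyk2 and Irf3 in knockout cells are not shown to differ by genotype.

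The rest of the pathway was read from 4 lists written with earlier results of these data known, so that their direction is no independent evidence. The ligands gave almost no counts. Of 20 interferon genes 13 had no count in any library and none could be tested. The 20 summed to 21 counts over the 3 libraries of sgCTRL_siCTRL, 4 in sgBACH1_siCTRL, 33 in sgCTRL_siFEM1B and 9 in sgBACH1_siFEM1B, mostly from Ifne, the epithelial interferon epsilon (15, 4, 23 and 7 counts). Ifnb1, the target of IRF3, had 0, 0, 2 and 0 counts in these groups, and Ifng 2, 0, 0 and 0.

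**Figure D4:**
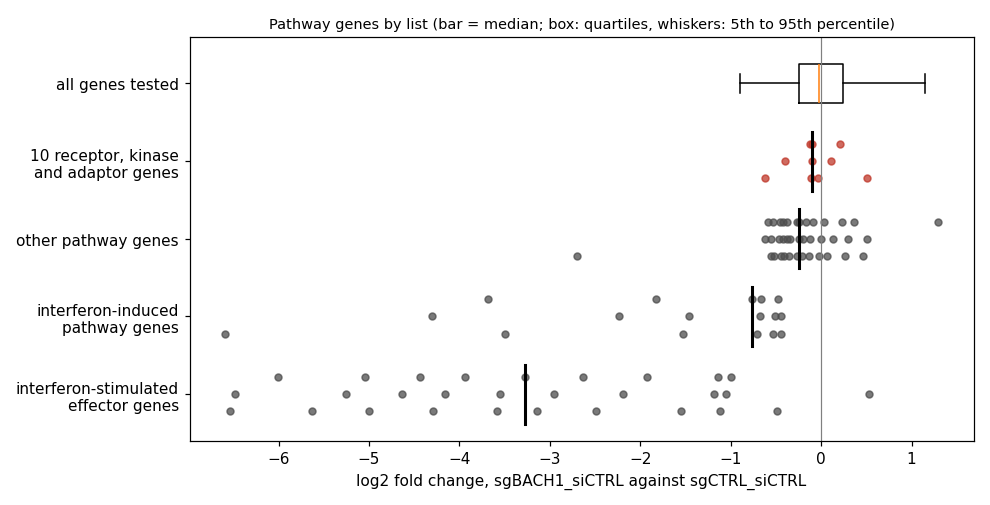
Change in the knockout relative to control cells under control siRNA (log2, horizontal axis) for each gene of 4 sets (points, with the median as a bar) and for all 13281 genes (box for the quartiles, whiskers at the 5th and 95th percentiles). The medians are −0.10 for the 10 upstream genes, −0.25 for the other pathway genes, −0.77 for the interferon-induced pathway genes and −3.27 for the effector genes.

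Pathway genes that are themselves induced by interferon, such as STATs, IRFs and the RNA sensors, fell in knockout cells in 17 of 17 tested members. Their median log2 fold change was −0.77, and 26.3% of all genes were called lower. Irf7, which amplifies type I interferon, changed by −3.50 ± 0.20 (adjusted p = 1.43e-11). The sensors that signal through MAVS were also lower: Ddx58, encoding RIG-I, by −1.46 ± 0.11 (adjusted p = 9.69e-10) and Ifih1, encoding MDA5 and chosen after its values were seen, by −2.24 ± 0.22 (adjusted p = 5.89e-08). Trim25, a ubiquitin ligase that activates RIG-I, changed by −0.71 ± 0.05 (adjusted p = 1.17e-09). Without replicate 1 of sgCTRL_siCTRL, 15 of the 17 were called lower, beside 3189 of all genes tested in that setting.

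The interferon-stimulated effector genes fell in 28 of 29 tested members in knockout cells, with a median of −3.27, beside 26.3% of all genes called lower. The exception was Isg20, named after its values were seen, which was called higher at 0.53 ± 0.11 (adjusted p = 0.000560). Under FEM1B siRNA the effector genes fell in 28 of 29 (median −3.10) and the induced pathway genes in 17 of 17 (median −0.78). Of all genes 26.4% were called lower there. FEM1B siRNA raised 20 of 29 effector genes and lowered none in control cells (median 0.68), and raised 14 and lowered none in knockout cells (median 0.47). Of all genes it raised 22.1% and lowered 22.9% in control cells, and raised 21.9% and lowered 19.8% in knockout cells. Of the induced pathway genes 11 of 17 rose and 2 fell in control cells (median 0.35), and 10 rose and 2 fell in knockout cells (median 0.39). In both genotypes the 2 that fell were Trim25 and Mb21d1, the gene of the DNA sensor cGAS.

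Other pathway genes, a list of those not chosen as interferon-induced, fell in 23 and rose in 5 of 39 tested members in knockout cells (median −0.25). Of all genes 26.3% were called lower and 24.2% higher. The list can still hold genes that interferon induces, which was not tested. The interferon-stimulated response element was in 3 of its 32 promoters. The outlying member was Tmem173, which encodes STING. It was at 102 ± 3.59 CPM in the control libraries and 15.6 ± 0.759 CPM in knockout cells, where it fell by 84.6%, a log2 fold change of −2.70 ± 0.09 (adjusted p = 3.91e-15). Under FEM1B siRNA it was at 141 ± 18.0 and 32.2 ± 3.35 CPM, a change of −2.14 ± 0.09 (adjusted p = 7.60e-14). The adaptor of DNA sensing was thus lower by far more than Mavs, the adaptor of RNA sensing, whose interval of −0.74 to −0.51 does not reach that of Tmem173, −2.89 to −2.51. Signalling factors shared with other cytokines fell less: Stat5b by 0.62 ± 0.07 (adjusted p = 1.50e-07), Stat3 by 0.55 ± 0.07 (adjusted p = 8.07e-07) and Socs3, a feedback inhibitor of JAKs, by 0.55 ± 0.07 (adjusted p = 1.45e-06). With the chromosome medians removed, 18 fell and 2 rose, beside 2998 of the 13281 genes called lower and 2804 higher in that setting.

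Under FEM1B siRNA the knockout had 19 of these 39 genes lower and 9 higher (median −0.20), beside 26.4% and 28.2% of all genes. FEM1B siRNA itself raised 16 and lowered 8 in control cells (median 0.06), beside 22.1% and 22.9% of all genes. In knockout cells it raised 17 and lowered 6 (median 0.09), beside 21.9% and 19.8% of all genes. Ifnlr1, the specific chain of the interferon lambda receptor, rose in both genotypes, by 0.90 ± 0.08 (adjusted p = 3.27e-08) in control cells and 1.11 ± 0.08 (adjusted p = 7.28e-09) in the knockout. Ikbkg, encoding NEMO, a subunit of the kinase complex that activates NF-kB, fell by 0.86 ± 0.08 (adjusted p = 3.30e-08) and 0.71 ± 0.08 (adjusted p = 5.55e-07). Tmem173 rose with the siRNA as well, by 0.48 ± 0.08 (adjusted p = 5.57e-05) in control cells and 1.04 ± 0.10 (adjusted p = 8.91e-08) in the knockout.

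Bach1 and a cluster of receptor genes lie on the same chromosome, so the genes between them were examined. Ifnar2, Il10rb, Ifnar1 and Ifngr2 start 3.67, 3.71, 3.79 and 3.85 Mb from the start of Bach1 on chromosome 16. The 10 genes tested between Bach1 and the cluster had a median log2 fold change of −0.08 in knockout cells under control siRNA. Of them 2 were called higher and 4 lower, beside 24.2% and 26.3% of all genes. The 41 genes tested beyond the cluster had a median of −0.01, and all 398 of the chromosome −0.03. Il10rb, whose chain serves the receptors for interleukin 10 and interferon lambda, was at 31.4 ± 1.83 and 31.5 ± 0.567 CPM, a change of 0.00 ± 0.07 (adjusted p = 0.991). Under FEM1B siRNA Il10rb was called higher in the knockout, at 0.17 ± 0.07 (adjusted p = 0.0365). The 10 genes between had a median of −0.02 there, with 1 called higher and 3 lower, beside 28.2% and 26.4% of all genes. FEM1B siRNA itself raised Il10rb by 0.33 ± 0.07 (adjusted p = 0.000479) in control and 0.50 ± 0.07 (adjusted p = 7.48e-06) in knockout cells.

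**Figure D5:**
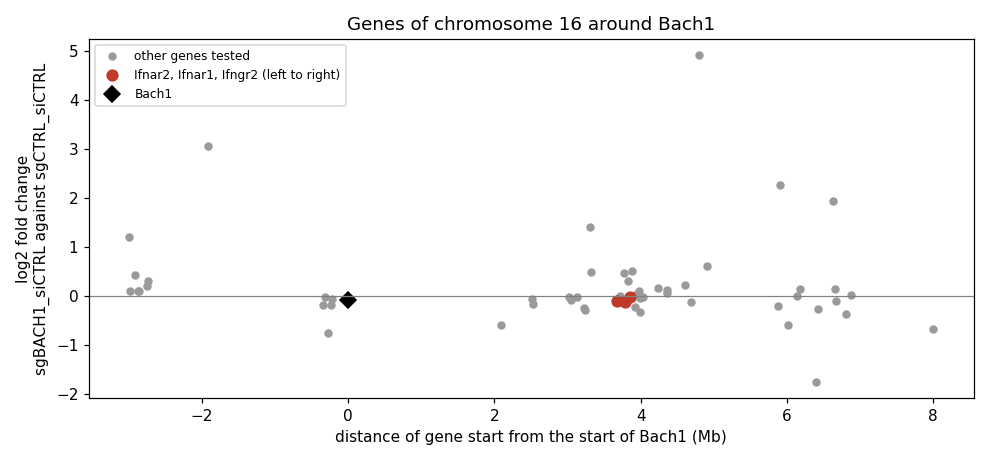
Change in the knockout relative to control cells under control siRNA (log2, vertical axis) against the distance of a gene's start from that of Bach1 in Mb (horizontal axis), for genes around Bach1 on chromosome 16. The marked receptor genes Ifnar2, Ifnar1 and Ifngr2 lie at 3.67 to 3.85 Mb with changes of −0.12 to −0.03, next to a median of −0.03 for the chromosome.

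Genes with the pattern most like that of the 2 members that changed most in knockout cells were found by Pearson correlation of log2 CPM over the 12 libraries, among 9999 genes of average log2 CPM of at least 3. The libraries fall into 4 groups, so that r mainly reflects the group means, and it is given as a description. Mavs was most like Ank (r = 0.994), Olfml2b (r = 0.993) and Ephx2 (r = 0.988), which changed by −1.51, −1.24 and −1.56 in knockout cells under control siRNA. Jak2 was most like Ccdc6 (r = 0.973), Phip (r = 0.972) and Gata6 (r = 0.969), which changed by 0.30, 0.47 and 0.76.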

How the data were processed

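The authors deposited raw counts, whole numbers for each gene symbol in 12 libraries, per the file headers and values. Per the submitters' processing notes, the build was mm10 and the tools were featureCounts 1.6.4, Subread, DESeq2 1.26.0 and SAMtools 1.9, with no step named. For the annotation and strand setting, nothing is given in the sources used here. The test was edgeR 4.0.16 (R 4.3.3): filterByExpr at a minimum count of 10, TMM scaling, 1 mean per group over all 12 libraries (8 residual degrees of freedom), the two-sided quasi-likelihood test, and Benjamini-Hochberg adjustment over the 13281 genes kept. This test gives every adjusted p unless another tool is named. A gene was called at an adjusted p under 0.05, and n is 3 per group. Standard errors come from the log2 fold change and the root of its F statistic, and 95% intervals follow from them. The p-values measure the spread between these libraries. The script was tested on simulated data.

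CPM scale counts to the library total times its TMM factor. Levels per kb use the union of exons in GENCODE M21 (GRCm38.p6), which also gave strands and exon overlaps. Gene positions and promoters are from RefSeq. No pair of replicates held identical counts, and chi-square per degree of freedom was 2.50 to 13.5 over 12 pairs. Alternatives were DESeq2 size factors, the DESeq2 1.42.0 Wald test, no filter, a replicate block, a fit of only the groups compared, removal of each chromosome's median, and each library left out. The members and lists were chosen with earlier results of these data known. The rule for naming took all 10 members, Bach1, Fem1b, Il10rb, and in each list and comparison up to 6 genes with the smallest p. Exceptions are stated. Some genes that the rule allows are not reported here.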

Additional observations from a re-analysis of the deposited data

Results flagged for a closer look

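None of the 10 upstream genes had an siRNA effect that differed between the genotypes by the test of that difference (edgeR quasi-likelihood test, effect in the knockout minus effect in the control, log2). Of the surrounding lists, 4 of 39 other pathway genes, 0 of 17 interferon-induced pathway genes and 3 of 29 effector genes were called, beside 6.08% of all genes, so that the counts are small and set nothing apart. Tmem173, encoding STING, differed by 0.56 (adjusted p = 0.0128), Nlrx1, a mitochondrial inhibitor of MAVS signalling, by 0.87 (adjusted p = 0.0162) and the adaptor gene Tradd by 0.36 (adjusted p = 0.0457), each with a larger or more positive effect in knockout cells. Chuk, an NF-kB kinase gene, differed by −0.33 (adjusted p = 0.0165). Of the effector genes, the GTPase genes Igtp and Irgm1 differed by 0.80 (adjusted p = 0.0457) and 0.38 (adjusted p just under the threshold), and Isg20 by −0.55 (adjusted p = 0.0439). The count of 3 effector genes fell to 0 with the replicate block, to 1 with DESeq2 size factors, to 1 by the DESeq2 Wald test, to 1 with the chromosome medians removed, and to 0 or 1 without each library except replicate 3 of sgCTRL_siFEM1B (3) and replicate 2 of sgBACH1_siFEM1B (4). The count of 4 other pathway genes fell to 1 without replicate 1 or 3 of sgBACH1_siCTRL, to 2 without replicate 3 of sgCTRL_siCTRL or replicate 1 or 3 of sgBACH1_siFEM1B, and rose to 7 without replicate 2 of sgBACH1_siFEM1B. No gene of that list was called lower, Chuk included, without replicate 1 or 3 of sgBACH1_siCTRL or replicate 1 of sgBACH1_siFEM1B.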

How the results depend on the processing

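All 50 log2 fold changes of the 10 genes (5 comparisons) kept their direction and side of the threshold under DESeq2 size factors, the DESeq2 Wald test and no filter, as did 40 of 40 in fits of only the groups compared, and 45 of 50 with the chromosome medians removed. That last setting reversed Tyk2 (−0.17) under control siRNA and Jak2 (−0.08) under FEM1B siRNA. It left 5 members called in the first case (1 higher, 4 lower) and 7 in the second (1 higher, 6 lower). Of the 13281 genes 5802 and 6610 were called there. Of 600 values with a library left out 580 were kept. Reversals were of uncalled values near 0, whose ranges were −0.09 to 0.05 for Ifngr2 in knockout against control cells, −0.02 to 0.06 for Ifnar2, −0.01 to 0.09 for Ifngr1 and 0.00 to 0.08 for Tyk2 with FEM1B siRNA in control cells, 0.00 to 0.15 for Ifnar2 and −0.01 to 0.12 for Ifnar1 in knockout cells, and −0.02 to 0.14 for Ifnar2 in the interaction. Leaving out libraries gave 3 to 4 members called in knockout against control cells, 8 to 9 under FEM1B siRNA, 4 to 5 for FEM1B siRNA in control cells, 6 in knockout cells and 0 to 3 for the interaction. Over all genes the interaction called 807 (462 higher, 345 lower), 297 to 1859 with a library left out, 1393 without the filter, and 369 higher and 441 lower with DESeq2 size factors. The cause was not tested.

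Same-numbered libraries did not deviate together (r −0.115 to 0.0788 over 18 pairs, and 2 of 12 libraries correlated best with their own number). No pairing by number was thus seen, but with 3 libraries per group shared handling of same-numbered libraries is not excluded. With the replicate block the members called were 4, 9, 5, 6 and 0, as without it, and the genes called 6488, 7031, 5749, 5298 and 603. Depth limits the ligand genes, whose few counts allow no test.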
